A study of Canis lupus familiaris with 31 samples.

Results

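The blood transcriptome was described in Miniature Schnauzers with moderate HTG, a raised level of blood triglycerides, meaning here fasting serum triglycerides from 263 to 431 mg/dl and under a bound of 500 mg/dl. The rule took the cases numbered 08 to 13 and set them against the 18 controls with triglycerides in the normal range, so 6 moderate cases and 18 controls, 24 of the 31 dogs in the series, entered the comparison. The triglyceride values chose the dogs, and no expression value did. The 7 cases with higher triglycerides, called severe here, were left out of that fit and entered a second fit of all 31 dogs, which set them against the moderate cases and the controls.

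All dogs were client-owned, purebred and fasted before sampling, and each gave 1 whole blood sample and 1 RNA library, so every value below is 1 animal. The moderate group held 3 males and 3 females aged 8 to 14 years (median 10) with a body condition score of 5 to 6. Case 11, at 14 years, was older than every other dog. The controls were 10 males and 8 females aged 7 to 13 years (median 9) with scores of 3 to 7. The severe cases were 5 males and 2 females aged 9 to 12 years (median 10) with scores of 4 to 7. By the study's account every dog was neutered except case 12, an intact female of the moderate group. The disease was spontaneous, with no treatment arm, and age, diet and other traits of pet dogs varied within each group.

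Triglycerides travel in blood inside chylomicrons and very low density lipoproteins, and this breed is known for a primary form of HTG. Whole blood RNA is a mixture. Neutrophils, lymphocytes and monocytes contribute transcripts of nucleated cells, immature red cells contribute heme synthesis transcripts, and platelets, which lack a nucleus, carry RNA packed into them by megakaryocytes. In such bulk samples a larger number of cells of a type and more RNA per cell cannot be told apart. Small GTPases organise the actin skeleton, and GTPase activating proteins such as those of the ARHGAP family switch them off.

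The libraries of the 2 groups were of like depth. Total counts ran from 16363134 to 34312116 in the moderate cases and from 14524659 to 41533599 in the controls, and the group means of log10 total counts did not differ beyond the spread (difference 0.0221, exact two-sided permutation test over all 134596 splits of the dogs, p = 0.709). In the first 2 principal components of the 500 most variable genes, which held 37.7% and 17.1% of the variance, the moderate cases lay among the controls (exact permutation p = 0.259 and 0.838). Markers of platelets, red cell precursors, neutrophils, monocytes, eosinophils and basophils, T cells, cytotoxic cells and B cells were all detected, whereas the summed level of 4 endothelial markers was 4.55 to 7.56 CPM (counts of a gene scaled to the effective library size) in the moderate cases and 4.09 to 15 in the controls. An unlabelled split separated the libraries by the level of rows named after small RNA families. It put cases 09 and 13 with 5 controls on the high side and the other 4 moderate cases with 13 controls on the low side, and values within each side are given below where they are set beside a result. Control 03 stood apart by its red cell transcripts.

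No gene passed the test. Of 14584 genes tested with edgeR's quasi-likelihood test, 0 (0%) had a Benjamini-Hochberg adjusted p at or below 0.05, and the smallest adjusted p was 0.378. At an unadjusted p under 0.05 there were 599 genes (4.11% of those tested), of which 315 were higher (2.16%) and 284 lower (1.95%) in the moderate cases. DESeq2, run as an alternative, called 1 of 25120 genes (0.00398%), TENT4B. The median log2 fold change of moderate cases over controls over all genes was -0.02, and 45.4% of genes lay above 0. No gene separated the groups fully: 0 genes (0%) had all moderate cases outside the range of the controls. All 6 moderate cases lay above the control median for 720 genes (4.94%) and below it for 551 genes (3.78%). The values that follow are therefore descriptions, and the genes are named in the order of unadjusted p, all having missed the threshold in the edgeR test.

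TENT4B, a noncanonical poly(A) polymerase that adds tails to RNAs and marks some for decay, had the smallest p. Its level was 48.5, 54.3, 51.6, 51.1, 49.2 and 46.8 CPM in cases 08 to 13, and 51.2, 61.2 and 66.9 CPM as the lowest, median and highest of the controls. All 6 cases lay below the control median, and 4 of them below every control. The log2 fold change of moderate cases over controls was -0.28 ± 0.06 (SE), a small difference against a narrow spread, with an unadjusted p of 4.73e-05 and an adjusted p of 0.378 in edgeR and an adjusted p of 0.0308 in DESeq2. Within the low and high sides of the small RNA split the log2 fold change was -0.28 and -0.29.

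ARHGAP29, which encodes a GTPase activating protein, was next. Its level was 4.97, 18.7, 3.29, 0.287, 5.34 and 2.33 CPM in cases 08 to 13, and the controls ran from 0.216 to 3.58 CPM with a median of 1.15. Cases 08, 09 and 12 lay above every control, case 09 far above the rest, and case 11 lay near the bottom of the control range. The log2 fold change was 2.12 ± 0.44 (SE; unadjusted p = 5.19e-05, edgeR adjusted p = 0.378). It was 1.29 without case 09 and 2.37 without case 11, and the latter fit alone among those leaving out 1 moderate case gave an adjusted p below the threshold (0.0273). Within the low and high sides of the split the log2 fold change was 1.44 and 2.84. ARHGAP21, a second protein of the family, was at 26.9, 50.7, 26.9, 34, 25.9 and 33.1 CPM in the 6 cases and at 19.1 to 32.7 CPM (median 24.4) in the controls. Each case lay above the control median and 3 above every control, with a log2 fold change of 0.44 ± 0.11 (edgeR adjusted p = 0.844), which was 0.27 without case 09.

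**Figure D1:**
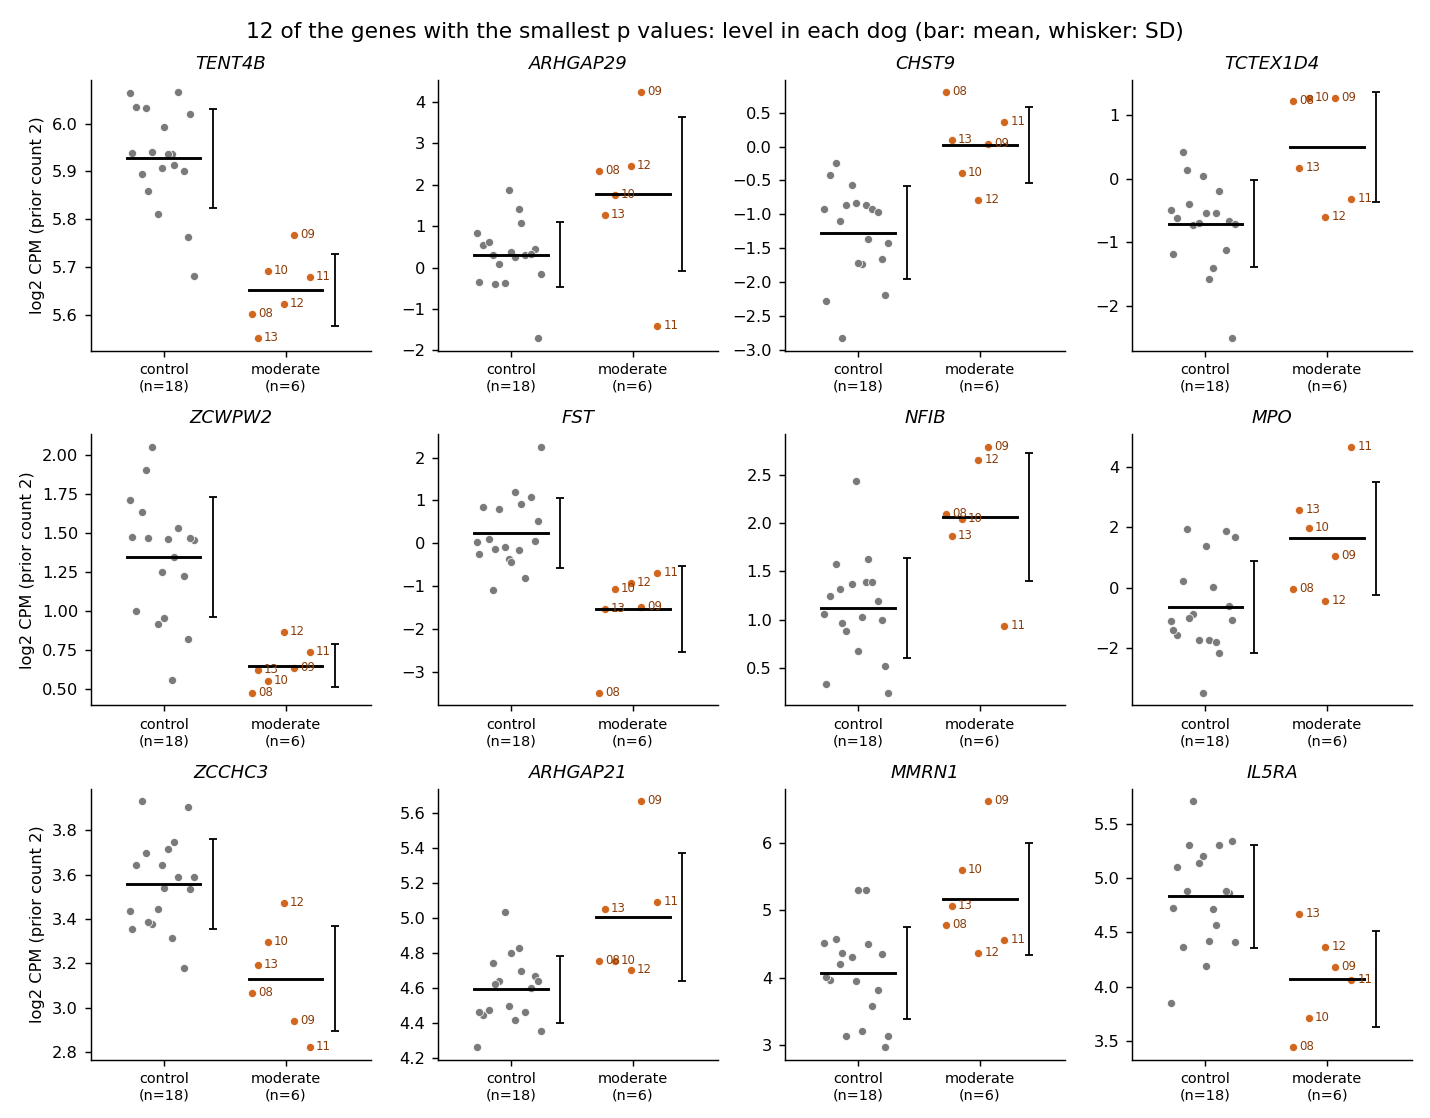
Level of 12 genes in each of the 24 dogs, as log2 CPM with a prior count of 2, for the 18 controls (grey) and the 6 moderate cases (orange, numbered by case); bars are group means and whiskers SD, and each panel has its own axis. TENT4B, ZCWPW2, FST, ZCCHC3 and IL5RA were lower in all 6 cases than the control median, and every panel shows some overlap of the groups.

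Other genes early in this order were lower in the moderate cases. ZCWPW2, a reader of histone methylation, was at 1.30, 1.47, 1.38, 1.58, 1.74 and 1.45 CPM in cases 08 to 13 and at 1.38 to 4.06 CPM (median 2.66) in the controls. All 6 cases sat in a band at the foot of the control range, and 16 of the 18 controls lay above every case (log2 fold change -0.77 ± 0.19, edgeR adjusted p = 0.844). FST encodes follistatin, a secreted protein that binds activin, and was near the limit of detection: 0, 0.267, 0.389, 0.526, 0.440 and 0.259 CPM in the cases against 0.379 to 4.70 CPM (median 0.944) in the controls. The 0 in case 08 allows up to 0.177 CPM at a limit of 3 counts, which covers counting error only, and again 16 of 18 controls lay above every case (log2 fold change -2.03 ± 0.51, edgeR adjusted p = 0.844). ZCCHC3, a zinc finger protein that takes part in nucleic acid sensing, had a log2 fold change of -0.43 ± 0.11 with 3 cases below every control. AP5Z1, a subunit of an endosomal adaptor complex, had one of -0.50 ± 0.14, with the cases between 36.6 and 44.3 CPM and 14 of 18 controls above all of them. All 6 cases lay below the control median for both genes (edgeR adjusted p = 0.844 each).

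IL5RA, the receptor chain that makes eosinophils respond to interleukin 5, was at 10.8, 18.1, 13.1, 16.6, 20.5 and 25.3 CPM in the moderate cases and at 14.3 to 52.3 CPM (median 29.2) in the controls. All 6 cases lay below the control median and cases 08 and 10 below every control, with a log2 fold change of -0.78 ± 0.21 (edgeR adjusted p = 0.870). It was -0.99 within the low side of the split and -0.39 within the high side. Of the 10 genes tested for eosinophils, basophils and mast cells, IL5RA included, 4 had a log2 fold change above 0 and the median was -0.13, which was -0.024 without control 03, 0.011 by limma-voom and 0.00086 on the high side of the split. GATA2, a transcription factor of basophils, mast cells and progenitors, was higher (log2 fold change 0.98 ± 0.38, unadjusted p = 0.0155, edgeR adjusted p = 1.00), through cases 11 and 13 at 7.51 and 11.8 CPM, above the control maximum of 5.52. Cases 09 and 12 at 1.00 and 1.89 CPM lay below the control median of 2.12. Without case 13 the log2 fold change of GATA2 was 0.50.

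Several genes expressed at low levels were higher. CHST9, a sulfotransferase acting on N-acetylgalactosamine, was at 1.66, 0.933, 0.672, 1.20, 0.492 and 0.983 CPM in cases 08 to 13 and at 0.0516 to 0.753 CPM (median 0.400) in the controls. TCTEX1D4, a dynein light chain protein, was at 2.25, 2.33, 2.33, 0.718, 0.570 and 1.04 CPM against 0.0865 to 1.25 CPM (median 0.553). All 6 cases lay above the control median for both genes, 4 above every control for CHST9 and 3 for TCTEX1D4, with log2 fold changes of 1.39 ± 0.34 each (edgeR adjusted p = 0.844). MATN4, a matrix protein of the matrilin family, had a log2 fold change of 1.11 ± 0.29, with all 6 cases above the control median. NFIB, a transcription factor, had one of 0.99 ± 0.25 with 5 of 6 above it and case 11 below at 1.82 CPM. HPGD, the enzyme that inactivates prostaglandins, was at 5.32, 10.9 and 13.7 CPM in cases 08, 11 and 13, above the control maximum of 4.58, and at 1.63 CPM in case 12, below the control median of 2.60 (log2 fold change 1.20 ± 0.33, edgeR adjusted p = 0.908).

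Further genes in this order were TST, a sulfur transferase of mitochondria, GATM, the first enzyme of creatine synthesis, and ANO6, a channel and scramblase through which activated platelets expose phosphatidylserine. TST had a log2 fold change of 0.66 ± 0.18 and GATM one of 1.04 ± 0.28 (edgeR adjusted p = 0.844 each), and ANO6 one of 0.58 ± 0.16 (edgeR adjusted p = 0.908). GATM was at 34.6, 70.9, 40.5, 23.9, 15.6 and 26.3 CPM in the cases and at 7.82 to 31.5 CPM (median 15.6) in the controls. ANO6 was at 291, 431, 236, 226, 150 and 200 CPM against 129 to 270 CPM (median 162). In both, case 09 was the highest dog, and case 12 lay close to the control median for GATM and below it for ANO6. Without case 09 the log2 fold changes of GATM and ANO6 were 0.72 and 0.36. With the platelet marker score described below as covariate they were 0.59 and 0.34.

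Many platelet genes were higher at an unadjusted p under 0.05. They were held in 3 lists: receptors for adhesion and activation, granule cargo, and the cytoskeleton and signalling of platelets and megakaryocytes. Of 65 genes tested over the lists, 54 had a log2 fold change above 0 (45.4% over all genes), the median was 0.44 (-0.02 over all genes), and 28 (43.1%) were higher at an unadjusted p under 0.05 against 2.16% of all genes, with 0 lower. None passed the adjusted threshold. The count rested on 1 dog: without case 09, 54 of 65 still had a value above 0, the median was 0.26, and 6 genes (9.23%) were higher at an unadjusted p under 0.05 against 1.08% of all genes. Leaving out case 12 instead gave 38 genes (3.08% of all genes were then higher at that p), and leaving out case 10 gave 19 (1.58% of all genes). Without control 03 there were 36 (4.14% of all genes). On the low and high sides of the split the median was 0.45 and 0.34, with 25 and 9 genes at that p, against 2.46% and 0.742% of all genes. Platelet genes move together within a dog, so these counts are not counts of independent events. The study had named platelet pathways from genes it called with these same dogs among its cases and controls. The platelet lists are therefore not independent evidence of a direction.

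Among the receptors, 18 of 19 genes tested had a log2 fold change above 0 and 10 were higher at an unadjusted p under 0.05. ITGB3 and ITGA2B encode the chains of the fibrinogen receptor. ITGB3 was at 897, 1889, 1266, 623, 533 and 854 CPM in cases 08 to 13 and at 285 to 971 CPM (median 605) in the controls, a log2 fold change of 0.70 ± 0.24 (unadjusted p = 0.0086). ITGA2B was at 643, 1507, 1050, 582, 422 and 742 CPM against 174 to 954 CPM (median 491), a log2 fold change of 0.68 ± 0.28. In both genes cases 09 and 10 lay above every control, case 12 lay below the control median, and the rest lay inside the control range. GP1BB, a chain of the receptor for von Willebrand factor, was at 90.4, 185, 104, 37.5, 55.4 and 71.1 CPM against 18.0 to 90.7 CPM (median 48.2), a log2 fold change of 0.91 ± 0.32. Here too cases 09 and 10 lay above every control, but case 11, not case 12, lay below the control median. Without case 09 these values were 0.42 for ITGB3, 0.42 for ITGA2B and 0.57 for GP1BB. GP9, the chain that joins GP1BB in that receptor, had one of 0.60 ± 0.33 (unadjusted p = 0.0788), and 0.26 without case 09.

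Of the granule cargo, 12 of 18 genes tested had a log2 fold change above 0 and 7 were higher at an unadjusted p under 0.05. MMRN1 encodes multimerin 1, stored in alpha granules as the carrier of factor V. It was at 27.5, 98.3, 48.2, 23.6, 20.5 and 33.3 CPM in cases 08 to 13 and at 7.74 to 39.4 CPM (median 17.2) in the controls. All 6 cases lay above the control median and 12 of 18 controls lay below every case, with a log2 fold change of 1.16 ± 0.31 (unadjusted p = 0.000788, edgeR adjusted p = 0.844), which was 0.72 without case 09. THBS1, the adhesive protein thrombospondin 1, was at 1002, 2255, 1857, 955, 625 and 1036 CPM against 408 to 1197 CPM (median 806). EGF, a growth factor released from granules, was at 176, 201, 112, 95.5, 56.0 and 109 CPM against 42.2 to 116 CPM (median 81.4). Their log2 fold changes were 0.72 ± 0.22 and 0.65 ± 0.20, with case 12 below the control median in both.

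PPBP, the precursor of a platelet chemokine and a marker of platelets, went another way. It was at 1621, 2179, 2110, 1114, 517 and 1692 CPM in cases 08 to 13 and at 386 to 3422 CPM (median 1720) in the controls, and 5 controls lay above every case. Its log2 fold change was -0.17 ± 0.31 (unadjusted p = 0.580), against 0.67 ± 0.25 for TUBB1, the beta tubulin of platelets, which was 0.44 without case 09, and 0.68 for ITGA2B. The summed level of the 4 platelet markers found was 1317 to 4806 CPM (median 2952) in the moderate cases and 798 to 5084 CPM (median 2509) in the controls, so all 6 sums lay inside the control range. PPBP gave the largest part of that sum in every moderate case. As a platelet marker score, the mean over the same 4 markers of log2 CPM minus each gene's mean over the 31 dogs, the cases were at 0.20, 1.14, 0.61, -0.31, -0.70 and 0.29 and the controls between -1.57 and 0.92, so case 09 lay above every control. With this score as covariate the median of the 65 genes was 0.13 and 10 were higher at an unadjusted p under 0.05, against 1.89% of all genes. The 4 markers, PPBP, ITGA2B, TUBB1 and GP9, are themselves among the 65 genes, so a smaller value is in part built into this fit and it does not test the part of platelet content.

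**Figure D2:**
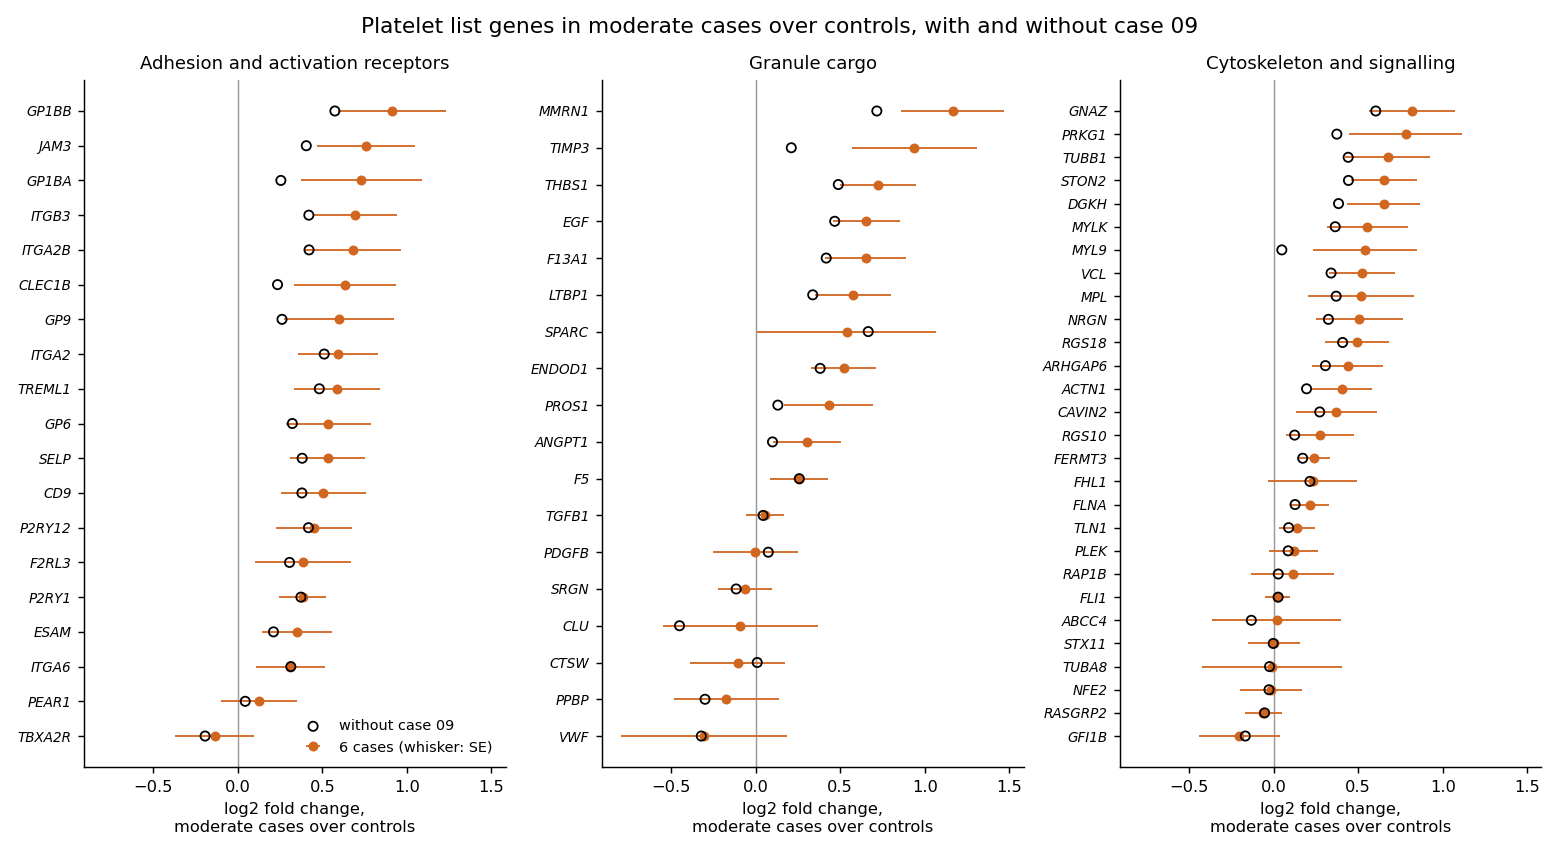
log2 fold change of moderate cases over controls for each tested gene of the 3 platelet lists, with all 6 cases (orange, whisker SE) and without case 09 (open circles). Values lie above 0 for 54 of 65 genes with and without case 09, and the median goes from 0.44 to 0.26.

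In the cytoskeleton and signalling list 24 of 28 genes tested had a log2 fold change above 0 and 11 were higher at an unadjusted p under 0.05. STON2, an adaptor for endocytosis, was at 138, 182, 76.1, 85.5, 75.4 and 93.1 CPM in the moderate cases and at 29.8 to 110 CPM (median 69.9) in the controls, with all 6 cases above the control median (log2 fold change 0.65 ± 0.20, unadjusted p = 0.00259). GNAZ, a G protein subunit that couples to the platelet adrenaline receptor, was at 47.2, 119, 103, 50.4, 33.0 and 69.7 CPM against 18.0 to 64.3 CPM (median 40.4), with 3 cases above every control (log2 fold change 0.82 ± 0.26, unadjusted p = 0.00383). FLNA, the actin crosslinker filamin A, which leukocytes also express, had a log2 fold change of 0.21 ± 0.12 (unadjusted p = 0.0805), and 0.13 without case 09.

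A list of 9 genes that the study had ranked highest in all its cases was looked up too. Since these moderate cases were among the dogs used to choose it, the list is not independent evidence of a direction. All 8 genes tested had a log2 fold change above 0, with a median of 0.65, and 7 were higher at an unadjusted p under 0.05 (2.16% of all genes), 6 without case 09 (1.08% of all genes). With the platelet marker score as covariate the median was 0.39 and 7 were higher at that p, against 1.89% of all genes. ST6GALNAC4, a sialyltransferase, was at 76.3, 139, 106, 73.5, 65.6 and 82.7 CPM against 31.8 to 90.9 CPM (median 55.1) in the controls, all 6 above the control median (log2 fold change 0.65 ± 0.19, unadjusted p = 0.00222). RTN4, a membrane protein of the endoplasmic reticulum, had a log2 fold change of 0.13 ± 0.06 with all 6 cases between 53.8 and 60.9 CPM and above the control median of 53.1. FZD7, a receptor for Wnt ligands, was at 0.35 ± 0.26 (unadjusted p = 0.189, and 0.21 without case 09), with 4 of 6 cases above the control median.

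**Figure D3:**
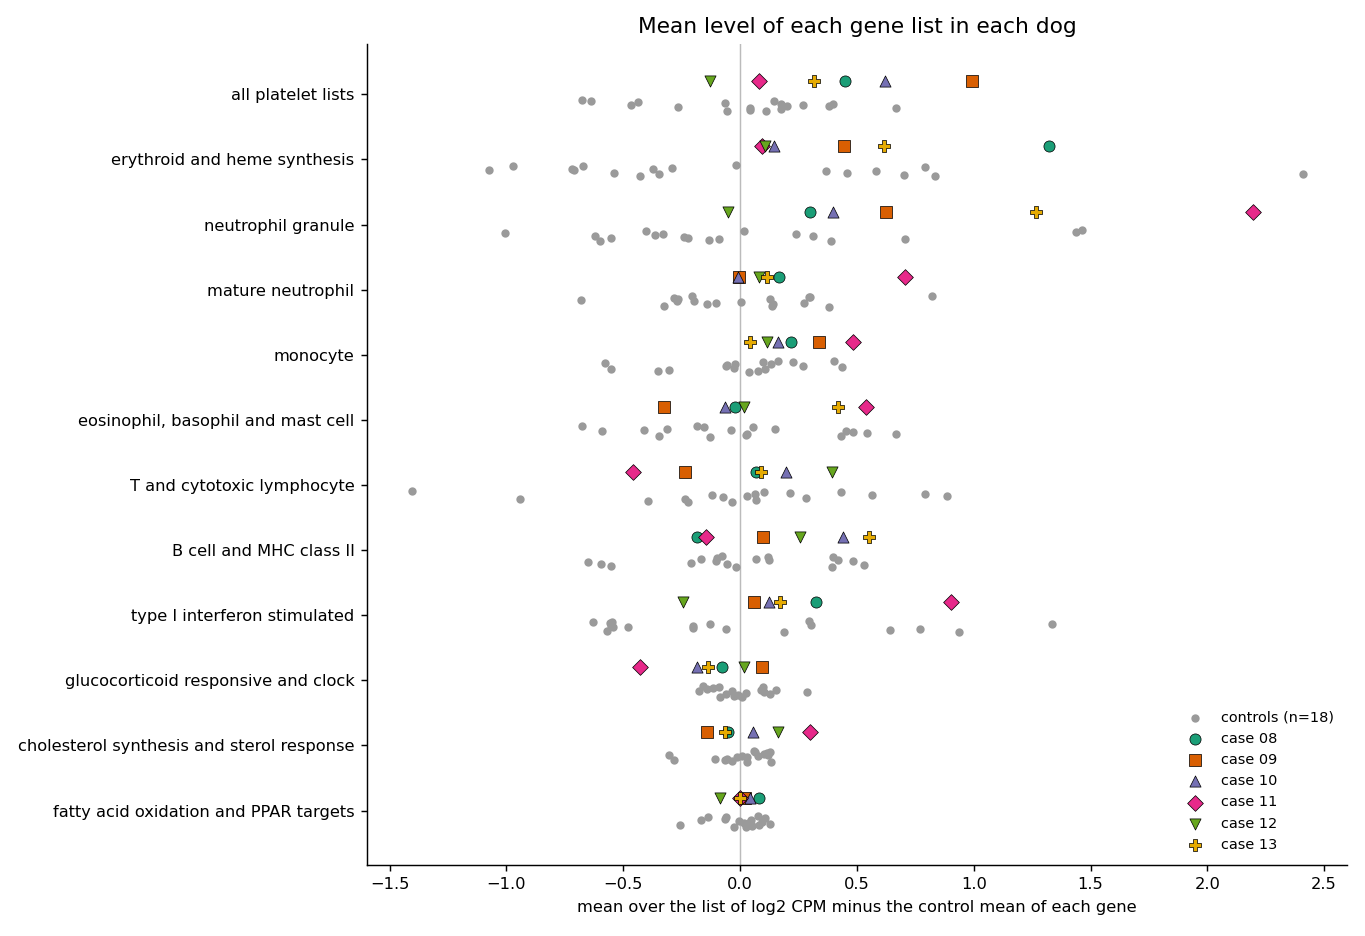
Mean level of 12 gene lists in each dog, given as the mean over a list of log2 CPM minus the control mean of each gene; small grey points are the 18 controls and large symbols the 6 moderate cases. Case 09 was above every control for the platelet lists at 0.99, case 11 above every control for the neutrophil granule list at 2.20, and control 03 was the highest dog for the erythroid list at 2.41.

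The mean level of red cell transcripts lay above the control median in all 6 moderate cases, and no gene of the list passed the adjusted threshold. Of 30 erythroid and heme synthesis genes tested, all 6 moderate cases lay above the control median for 17 (56.7%, against 4.94% of all genes), and 25 had a log2 fold change above 0, yet the median was 0.09 and 2 genes were higher at an unadjusted p under 0.05, against 2.16% of all genes. The mean level of the list was 1.32, 0.44, 0.15, 0.09, 0.11 and 0.62 on the log2 scale in cases 08 to 13, and -1.07, -0.32 and 2.41 as lowest, median and highest of the controls. The controls thus covered a wider range than the cases, with control 03 far above. Red cell genes move together within a dog, so the gene counts here are not counts of independent events. Without control 03 the median was 0.50 with 29 of 30 genes above 0 and 9 at an unadjusted p under 0.05, where 4.14% of all genes were higher at that p. Without case 08, the highest case, it was -0.06 with 11 genes above 0, and it was 0.41 and -0.39 on the low and high sides of the split, so its direction was not stable. By DESeq2 and limma-voom, with all 24 dogs, it was 0.19 and 0.45. ALAS2, the rate-limiting enzyme of heme synthesis in red cell precursors, was at 6379, 3565, 1877, 2049, 2058 and 2597 CPM in the cases, all above the control median of 1253, within a control range of 475 to 23650 CPM. Its log2 fold change was 0.12 ± 0.65 in edgeR and 0.93 ± 0.38 in DESeq2, 0.94 without control 03, and 0.86 and -0.96 on the low and high sides of the split. ALAD, the next enzyme of the pathway, and EPOR, the erythropoietin receptor, had log2 fold changes of 0.52 ± 0.21 and 0.48 ± 0.21 (unadjusted p = 0.0233 and 0.0317), which were above 0 in every alternative run.

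Granule genes of neutrophils were higher in 2 dogs in particular. MPO, the myeloperoxidase that neutrophil precursors pack into primary granules, was at 0.887, 2.00, 3.82, 25.5, 0.648 and 5.85 CPM in cases 08 to 13 and at 0 to 3.79 CPM (median 0.401) in the controls. Again all 6 cases lay above the control median, and cases 10, 11 and 13 above every control, with a log2 fold change of 2.69 ± 0.69 (unadjusted p = 0.000642, edgeR adjusted p = 0.844). Without case 11 it was 1.39. ELANE, the neutrophil elastase of the same granules, fell under the filter on low counts, and cases 11 and 13 held 2.58 and 1.40 CPM against a control maximum of 0.431. SLPI, an inhibitor of that elastase, was at 3.92 and 2.38 CPM in cases 11 and 13 and at 0.200 to 0.725 CPM in the other 4 cases, against 0 to 1.51 CPM in the controls (log2 fold change 1.82 ± 0.51, and 1.13 without case 11). CTSG, cathepsin G, was the only other gene of the list at an unadjusted p under 0.05 (1.27 ± 0.40), and was named after its value was seen. A count of 0 allows up to 0.379 CPM in the shallowest control.

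Over the whole neutrophil granule list, 14 of 16 genes tested had a log2 fold change above 0 and the median was 0.54, which was 0.09 without case 11, 0.17 with age as covariate, and 0.26 and 0.91 on the low and high sides of the split. The mean level of the list was 0.30, 0.63, 0.40, 2.20, -0.05 and 1.27 in cases 08 to 13, against -1.01 to 1.46 (median -0.18) in the controls. Genes of mature neutrophils had a median of 0.05, with CSF3R, the receptor for granulocyte colony stimulating factor, at -0.07 ± 0.18. NCF1, a subunit of the phagocyte oxidase, was at 280 CPM in case 11 and at 120 to 184 CPM in the other cases, all above the control median of 119 (0.38 ± 0.18, unadjusted p = 0.0401, and 0.16 without case 11). ALPL, alkaline phosphatase, was at 0 to 1.67 CPM in the cases (1.21 ± 0.52, unadjusted p = 0.0277, and 0.67 without case 11). LYZ, lysozyme of neutrophils and monocytes, was highest in case 11 at 2545 CPM, above the control maximum of 2001 (0.32 ± 0.20, and 0.12 without case 11).

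Other leukocyte lists gave small values. Of 22 T and cytotoxic lymphocyte genes 3 had a log2 fold change above 0, with a median of -0.12 and 0 at an unadjusted p under 0.05 in the edgeR fit. That count moved with the setting: it was 9 by limma-voom (median -0.03), 10 with 1 surrogate variable (-0.02), 12 on the high side of the split (0.0088) and 13 with the erythroid marker score as covariate (0.03). IL7R and CD28, receptors that sustain and costimulate T cells, were at -0.32 ± 0.20 and -0.25 ± 0.16, the latter -0.15 without case 11. Of 16 B cell and MHC class II genes 12 lay above 0 (median 0.11), and the scaffold BANK1 (0.32 ± 0.15, unadjusted p = 0.0417) was 0.11 without case 09, and 0.069 and 0.70 on the low and high sides of the split. Of 17 monocyte genes 14 lay above 0 (median 0.15, 0 at an unadjusted p under 0.05), with the lysosomal protease CTSD at 0.25 ± 0.12. Of 21 progenitor and proliferation genes 16 lay above 0 (median 0.16), and TYMS, thymidylate synthase, was at 23.3 CPM in case 08 and 10.7 to 13.7 CPM in the others, all above the control median of 8.94 (0.48 ± 0.18, unadjusted p = 0.0104, and 0.27 without case 08).

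Endothelial genes were few. Of 9 genes tested on that list 7 had a log2 fold change above 0 (median 0.35), and 3 were higher at an unadjusted p under 0.05, against 2.16% of all genes. These were PECAM1, an adhesion molecule also on platelets and leukocytes (0.46 ± 0.16), KDR, a receptor for vascular endothelial growth factor (0.46 ± 0.17), and ERG, a transcription factor also of early blood cells (0.75 ± 0.30). ERG was named after its value was seen, and was at 0.40 without case 11, and 0.94 and 0.27 on the low and high sides of the split. KDR was at 32.5, 41.1, 33.7, 19.0, 29.4 and 18.4 CPM in cases 08 to 13 and at 13.0 to 29.4 CPM (median 21.1) in the controls, so 4 cases lay above every control, case 12 only just, and cases 11 and 13 below the control median. ESAM, shared with the platelet receptor list, was at 0.35 ± 0.21, and 0.21 without case 09. Without case 09, 1 of the 9 was higher at that p (1.08% of all genes). With the platelet marker score as covariate 6 of the 9 lay above 0, the median was 0.21 and 1 was higher at that p (1.89% of all genes), with PECAM1 at 0.21, KDR at 0.27 and ESAM at 0.046. The defining endothelial markers were near the low end, as given above.

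Genes of lipid handling in blood cells lay close to the background. Of 24 genes of cholesterol synthesis and the sterol response, 13 had a log2 fold change above 0, with a median of 0.02 and 0 at an unadjusted p under 0.05. SREBF1, which drives fatty acid synthesis genes, and DHCR7, the last enzyme of cholesterol synthesis, were at 0.22 ± 0.11 and 0.43 ± 0.28. On the low side of the split they were 0.27 and 0.56, and on the high side 0.069 and 0.11. Of 30 genes of fatty acid synthesis and triglyceride handling 14 lay above 0 (median -0.02). Of 26 genes of fatty acid oxidation and PPAR targets 15 did (median 0.01), and again 0 of either list was at an unadjusted p under 0.05 in the edgeR fit. PDK4, a kinase that turns cells from glucose to fat use, was at 1.24, 1.07, 0.424, 0.191, 0 and 0.259 CPM in the cases and at 0 to 5.17 CPM (median 1.01) in the controls (-1.62 ± 0.85, unadjusted p = 0.0679). LPIN1, a phosphatidate phosphatase, was at -0.22 ± 0.13, LIPE, hormone-sensitive lipase, at 0.25 ± 0.16 (0.16 without case 11), and ACAA2, a thiolase of fatty acid oxidation, at 0.31 ± 0.17 (0.19 without case 08).

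Of 15 LXR targets and cholesterol efflux genes 7 lay above 0 (median -0.01). SMPDL3A, a phosphodiesterase induced by LXR, was at 7.99, 13.6, 8.52, 10.4, 5.93 and 9.05 CPM against 3.87 to 9.39 CPM (median 7.08), with cases 09 and 11 above every control (0.40 ± 0.16, unadjusted p = 0.0204, and 0.26 without case 09). On the low and high sides of the split it was 0.20 and 0.79. SCARB1, a receptor for high density lipoprotein, was at 0.18 ± 0.10, and 0.24 and 0.039 on the low and high sides.

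Signalling and stress lists gave medians between -0.10 and 0.07. Of 22 glucocorticoid responsive and clock genes 3 had a log2 fold change above 0 (median -0.10), with the clock repressors CRY1 at -0.21 ± 0.10 (unadjusted p = 0.0426) and CRY2 at -0.23 ± 0.13. Case 11 held the lowest mean level of that list at -0.43, below the control minimum of -0.17, and without it 9 of 22 lay above 0 and the median was -0.06. Of 25 interferon-stimulated genes 18 lay above 0 (median 0.05), and without case 11, the highest case at 0.90, 7 did (median -0.12), with ISG15 at 0.53 ± 0.43 with all cases and 0.018 without case 11. Of 27 genes of NF-kB, the inflammasome and interleukin 1, 15 lay above 0 (median 0.02), and IL1R2, the decoy receptor for interleukin 1, was at -1.01 ± 0.56. Of 18 cytokine feedback genes 13 did (median 0.04), with CISH, a feedback inhibitor of STAT5 signalling, at 46.2 to 57.3 CPM in the 6 cases, all above the control median of 38.1 (0.33 ± 0.15, unadjusted p = 0.0404). On the low and high sides of the split CISH was 0.52 and -0.078.

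The median was 0.07 for 20 antioxidant genes, with 17 above 0, and -0.01 for 21 heat shock and unfolded protein genes, with 8 above 0. It was 0.04 for 26 genes of insulin signalling and glycolysis, with the glycolytic enzymes ENO1 at 0.33 ± 0.18 and GPI at 0.26 ± 0.14, which were 0.20 and 0.12 without case 11. Leaving out that case also took below 0 the small medians of the insulin signalling (-0.0071), mature neutrophil (-0.0094), NF-kB (-0.014) and cholesterol synthesis (-0.049) lists. The median of the antioxidant list was 0.15 by limma-voom. Its mean level in the cases, 0.12 to 0.60, lay inside the control range of -0.44 to 0.87. The housekeeping sets lay at 0.02 for 56 cytosolic ribosomal proteins, 0.03 for 58 nuclear genes of the respiratory chain and its assembly, and 0.01 for 33 proteasome subunits.

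**Figure D4:**
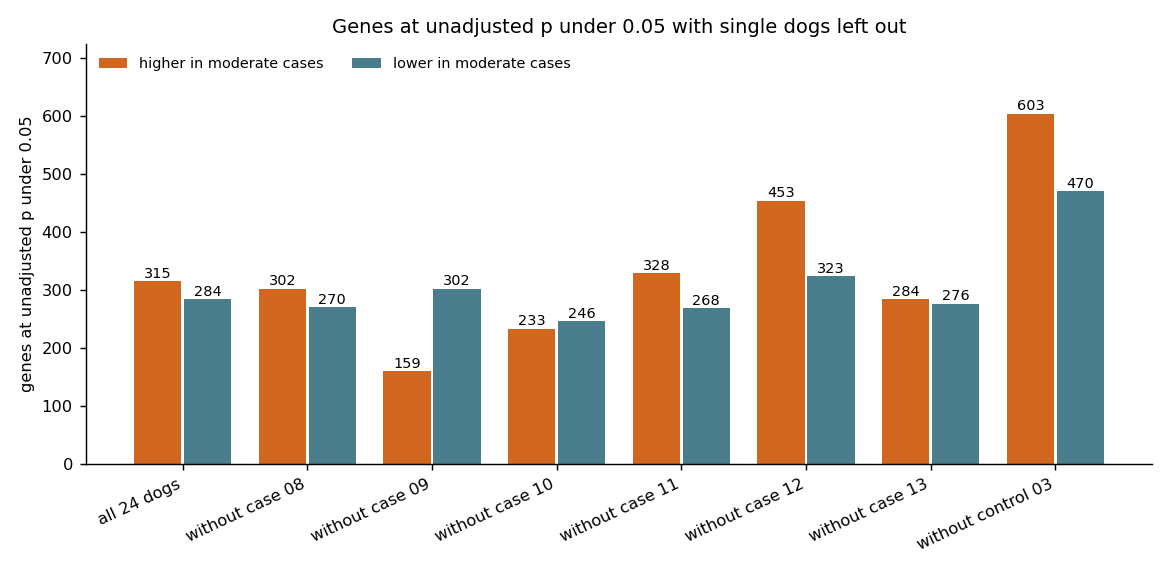
Number of genes at an unadjusted p under 0.05 in the edgeR fit, higher (orange) and lower (blue) in the moderate cases, with all 24 dogs and with each moderate case or control 03 left out. The higher genes numbered 315 with all dogs, 159 without case 09 and 603 without control 03, while the lower ones numbered 284, 302 and 470.

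Single dogs set the number of genes at an unadjusted p under 0.05, as the plot of counts with dogs left out shows. Without case 09 there were 461, of which 34.5% were higher in the moderate cases, against 599 and 52.6% with all dogs. Without control 03 there were 1073. Case 09 held the highest platelet level and the highest small RNA level of the moderate cases, 1.71 as mean log2 CPM of the small RNA rows. With the platelet marker score as covariate there were 518 genes, 276 of them higher, and with the small RNA split as covariate 637, of which 340 were higher. Over the groups the small RNA level did not differ beyond the spread (difference -0.0531, exact permutation test, p = 0.820).

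The moderate cases were then set against the severe ones, to ask whether blood expression differed with the height of the triglycerides among cases. In a fit of all 31 dogs in 3 groups, 0 of 14843 genes (0%) differed between severe and moderate cases at an edgeR adjusted p of 0.05, the smallest adjusted p being 0.999. At an unadjusted p under 0.05 there were 346 genes (2.33%), 192 higher and 154 lower in the severe cases. DESeq2 also called 0. In that fit severe cases over controls gave 7 genes at an adjusted p of 0.05 or less and 1399 at an unadjusted p under 0.05, and moderate cases over controls gave 0 and 628. Both comparisons used the same 18 controls.

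The 6 named genes with the smallest p between severe and moderate cases were MMP1, PRPSAP2, PLK2, GPC1, UPB1 and GSS. MMP1, interstitial collagenase, was at 8.70, 1.73, 3.50, 48.1, 1.45 and 56.4 CPM in moderate cases 08 to 13, at 0.485, 0.657 and 5.30 CPM as lowest, median and highest of the severe cases, and at 0.231, 1.27 and 30.5 CPM in the controls. All 6 moderate cases lay above the control median and 2 of 7 severe cases did, and cases 11 and 13 lay above every other dog (severe minus moderate log2 fold change -3.71 ± 1.07, unadjusted p = 0.00155). UPB1, an enzyme of pyrimidine breakdown, was at 4.26 to 9.35 CPM in the moderate cases and 1.85 to 6.16 CPM in the severe ones, with a control median of 3.93 (severe minus moderate -0.76 ± 0.24). GSS, glutathione synthetase, was at 10.0, 11.1, 13.3, 12.9, 10.7 and 12.9 CPM in the moderate cases and 7.02 to 10.2 CPM in the severe cases, with a control median of 9.32 (-0.45 ± 0.14). All 6 moderate cases lay above the control median for both UPB1 and GSS, and 2 of 7 severe cases did.

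PRPSAP2, which associates with the enzyme of phosphoribosyl pyrophosphate synthesis, showed a like order (-0.40 ± 0.12), with 5 of 6 moderate and 1 of 7 severe cases above the control median. PLK2, a stress-responsive kinase, was higher in the severe cases (1.31 ± 0.39), at 0.657 to 3.05 CPM against 0.267 to 0.909 CPM in the moderate ones. GPC1, a glypican at the limit of detection, was at 0 to 0.743 CPM in the moderate and 0 to 0.273 CPM in the severe cases (-2.61 ± 0.79). All of these missed the adjusted threshold in edgeR.

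**Figure D5:**
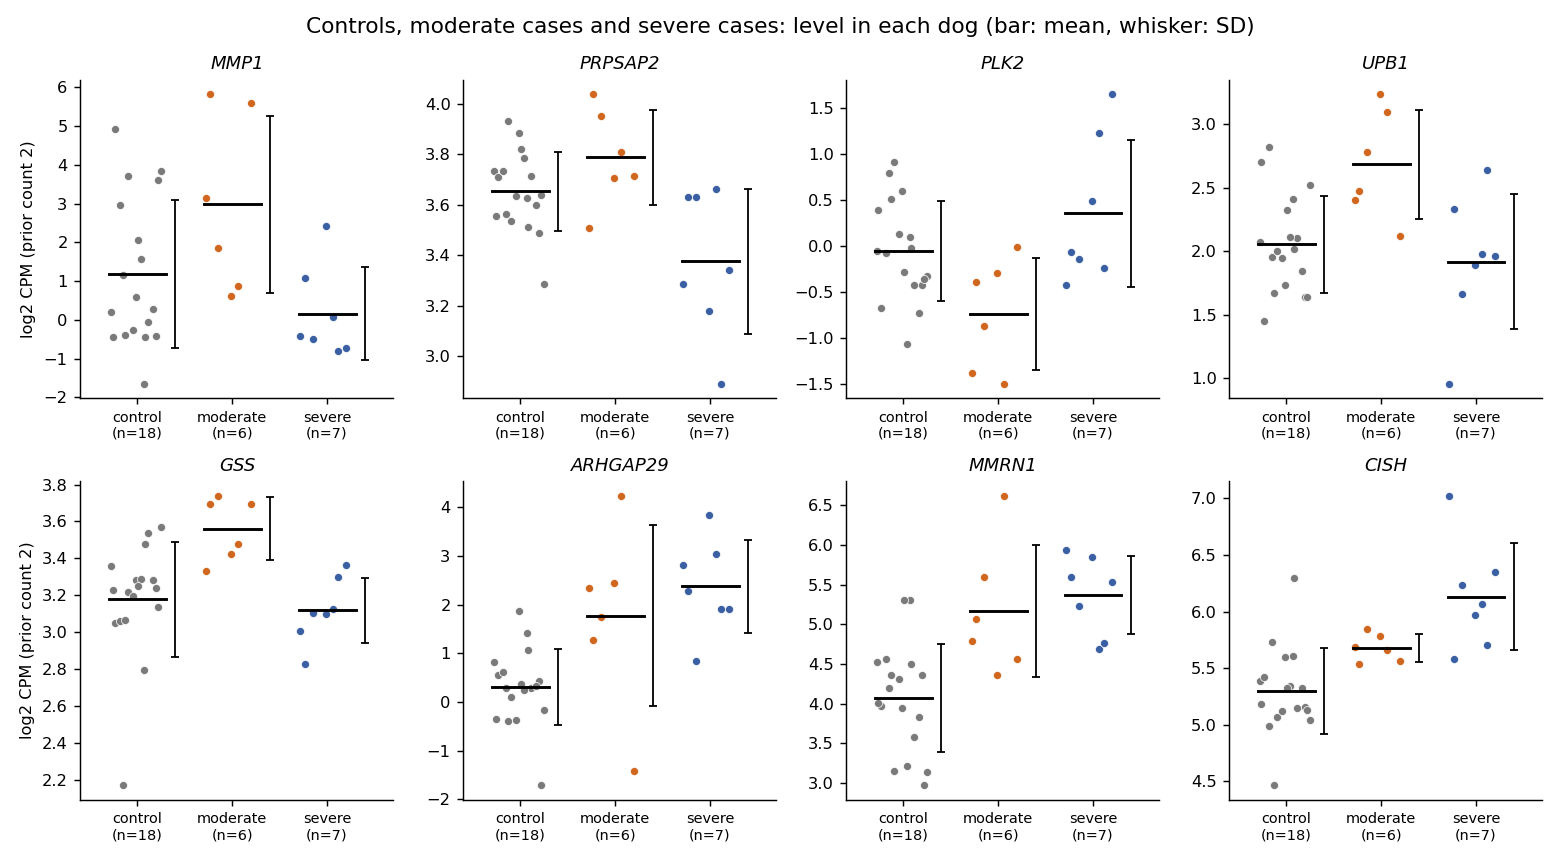
Level of 8 genes in each of the 31 dogs, as log2 CPM with a prior count of 2, in controls (grey, n = 18), moderate cases (orange, n = 6) and severe cases (blue, n = 7); bars are means, whiskers SD, and each panel has its own axis. MMP1, UPB1 and GSS lay above the control median in all 6 moderate cases and in 2 of 7 severe cases. ARHGAP29 lay above it in 5 of 6 moderate and 7 of 7 severe cases, and MMRN1 in 6 of 6 and 7 of 7.

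For several of the leading genes the values are set side by side, those of single genes in moderate cases from the fit of 24 dogs and those in severe cases, like the differences, from the fit of 31. ARHGAP29 was at 1.72, 4.75 and 14.2 CPM as lowest, median and highest of the severe cases, with a severe over control log2 fold change of 2.21 ± 0.42 (edgeR adjusted p = 0.0195) next to 2.12 ± 0.44 for the moderate cases, and the difference between the case groups was 0.09 ± 0.54. ARHGAP21 was at 0.63 ± 0.11 in severe (edgeR adjusted p = 0.0160) and 0.44 ± 0.11 in moderate cases, a difference of 0.19 ± 0.14. CHST9 was at 1.76 ± 0.35 in severe cases (edgeR adjusted p = 0.0381) and at 1.39 ± 0.34 in moderate ones, a difference of 0.37 ± 0.45. MMRN1 was at 1.22 ± 0.28 and 1.16 ± 0.31, and MPO at 2.18 ± 0.64 and 2.69 ± 0.69. A difference that misses the threshold does not show that the case groups were alike.

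Other genes stood further apart. CISH was at 0.86 ± 0.16 in severe cases over controls (edgeR adjusted p = 0.0160) and 0.33 ± 0.15 in moderate ones, a difference of 0.52 ± 0.21 (unadjusted p = 0.0162). TENT4B was at -0.10 ± 0.06 in severe and -0.28 ± 0.06 in moderate cases, a difference of 0.18 ± 0.08 (unadjusted p = 0.0259). FST and NFIB, at -2.03 and 0.99 in the moderate cases, were at -0.54 ± 0.46 and 0.18 ± 0.25 in the severe ones (unadjusted p of the difference 0.0204 and 0.0124). PPBP, at -0.17 in the moderate cases, was at 0.36 ± 0.27 in the severe cases, a difference of 0.53 ± 0.34 (unadjusted p = 0.132). None of these differences passed the adjusted threshold in edgeR. Over the 65 platelet genes the median log2 fold change in the fit of 31 dogs was 0.45 in severe and 0.44 in moderate cases over the shared controls, the latter 0.26 without case 09 in the fit of 24 dogs. In the fit of 31 dogs, 62 of these genes lay above 0 in severe cases and 39 were higher at an unadjusted p under 0.05 (5.14% of all genes were). For moderate cases the counts in that fit were 55 and 31 (2.38% of all genes). Over the 30 erythroid genes the median in that fit was 0.74 in severe and 0.10 in moderate cases, and this gap was not tested. Without control 03 the moderate median was 0.50 in the fit of 24 dogs. Mean levels of the list in single dogs overlapped, at -0.62 to 2.26 in severe and 0.09 to 1.32 in moderate cases.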

How the data were processed

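Whole blood RNA from 31 Miniature Schnauzers, 1 library per dog, was made into stranded total RNA libraries with ribosomal RNA removed. Per the study's methods, the authors checked the reads with FastQC, trimmed them with Trimmomatic and aligned them to the dog genome (Boxer assembly) with HISAT2 in the CHURP pipeline. They deposited raw counts per Ensembl gene, with no normalization. The counting program, annotation release and strand setting are not given in the sources used here, so overlapping or duplicated genes are uncertain. The table held 32704 rows, 18601 with a symbol, and no other columns of samples.

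Genes were filtered with filterByExpr by group and tested with edgeR 4.0.16 (R 4.3.3; TMM, quasi-likelihood, two-sided, Benjamini-Hochberg, threshold 0.05) on the 24 dogs with no covariate, and in 3 groups of 31 dogs for severe minus moderate. SE is the absolute log2 fold change over the square root of F. CPM used the TMM factors of the 31 dogs, and list levels log2 CPM with a prior count of 2. The limits given for a dog without counts of a gene cover counting error only, whereas the SE includes the spread between dogs. The scripts were tested on simulated data. DESeq2 1.42.0, limma 3.58.1 and sva 3.50.0 gave alternatives. The study used DESeq2 with a batch term, but no label names the batch of a dog. Dogs were therefore split at the widest gap of the mean log2 CPM of 431 rows named after Rfam small RNA families (0.810 to 1.05). The high side held 10 of the 31 dogs, 5 cases and 5 controls. The study's methods give an earlier pilot set of the same size and make-up, but no label says which dogs it held, so the split was not taken for it. Dog numbers were shared between the groups, and the correlation of same-numbered dogs was over 0.1 in 1 of 6 pairs, so they were not treated as pairs. The p-values measure the spread between dogs. Figures were drawn with matplotlib.

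The division of the cases follows the triglycerides in the study's table. The members and lists were chosen with earlier results of these data known. Named genes were those with a symbol and the smallest unadjusted p up to 20, the study's top genes, up to 4 per list by p and by level, up to 6 for severe minus moderate, and markers. Some genes that fall under this rule, and 1 list, are not reported here. No sequence or coordinate is given, as no genome of the build was used here.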

Additional observations from a re-analysis of the deposited data

Results flagged for a closer look

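Of 103 values of the 6 moderate cases checked for a dog far from the other 5, 6 were past Dixon's 95% limit for the gap between that dog and its neighbour over the whole range, and chance alone puts about 1 in 20 there. Among genes, the gap was 0.705 of the range for FST, where case 08 was lowest at a log2 CPM of -3.49 against a median of -1.06 in the others. Case 08 had 0 counts there, so -3.49 is set by the prior count and is not a measured level. With case 08 at its limit of 3 counts (0.177 CPM), a value chosen after seeing the data, the gap was 0.348 of the range, which is not past Dixon's limit. It was 0.632 for CD28, where case 11 was lowest at 2.52 against 3.25. It was 0.689 for TYMS, where case 08 was highest at 4.54 against 3.51. Among list levels, the gap was 0.752 for the mature neutrophil list, where case 11 was highest at 0.71 against 0.08, and 0.694 for the antioxidant list, where case 08 was highest at 0.60 against 0.15. It was 0.657 for the insulin signalling and glycolysis list, where case 11 was highest at 0.29 against 0.06. No named gene differed between severe and moderate cases at an adjusted p of 0.05 in edgeR, and none had the 2 case groups wholly on opposite sides of the control median.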

How the results depend on the processing

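The count of 0 genes at an adjusted p of 0.05 held under 24 of 27 alternatives. DESeq2 gave 1, without and with the small RNA split as covariate (TENT4B both times, adjusted p = 0.0308 and 0.0458), and leaving out 1 moderate case at a time gave 0 to 1. Genes at an unadjusted p under 0.05, 599 as reported (4.11% of those tested), numbered 1585 with no filter on low counts (6.3%) and 899 by DESeq2 with the split as covariate (3.59%). They numbered 201 on the high side of the split (1.39%, from 2 cases and 5 controls) and 1073 without control 03 (7.37%). The 28 platelet genes higher at that p became 9 on the high side of the split, 10 with the platelet marker score as covariate and 6 to 38 with 1 moderate case left out. The median log2 fold change of the erythroid list was -0.39 on the high side. Dog number was also used as a replicate block, which the check of the numbers gives no ground for (correlation -0.0511 to 0.176, 0 of 6 best with their own number). The count at an adjusted p of 0.05 stayed 0, and 3.29% of all genes were higher at an unadjusted p under 0.05. The medians, with list genes higher at that p in brackets, were 0.67 for the platelet lists (29), 0.49 for the erythroid list (9) and 0.35 for the interferon list (5). They were 0.22 for the antioxidant list (5) and 0.51 for the endothelial list (1). Of 1925 pairs of named gene and alternative, 1913 kept the direction. The others were PPBP (0.0060 with age as covariate, 0.027 with the replicate block, and -0.30 to 0.0067 with 1 moderate case left out), CSF3R (0.018 with age, 0.12 with the block, 0.099 on the low side), ALAS2 (-0.24 to 0.23 with 1 moderate case left out, and -0.96 on the high side), and, on the high side, CTSD (-0.025), ISG15 (-0.23), CISH (-0.078) and LPIN1 (0.023). The cause of these moves was not tested. Severe against moderate cases gave 0 genes under all 7 alternatives run, with 207 to 1368 at an unadjusted p under 0.05, and the principal components missed the threshold under the 2 other gene choices too. List values without control 03, within the split, with marker scores and with the block were chosen after seeing the data. With 6 cases, 1 dog can set a count, and genes under about 1 CPM rest on few reads.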
